A study of Mus musculus with 3 samples.

Results

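Monocyte-like cells were taken here as cells of a sorted tumour macrophage population that carried at least 1 UMI (a counted RNA molecule) of Ccr2, at least 1 UMI of Ly6c2, Plac8 or Chil3, and no UMI of Lyve1. The cells were thus chosen by their measured UMIs of these 5 genes. Of 9749 cells kept after removing barcodes under 500 genes or over 15% mitochondrial UMIs, 474 met this rule. They came from 3 mice of 1 group, strain FVB/N-Tg(MMTVPyVT)634Mul/J, with 117, 83 and 274 cells from mice 1, 2 and 3. In this strain the mouse mammary tumour virus promoter drives the polyoma middle T antigen in mammary epithelium, and every mouse carries the transgene, so there is no tumour-free control. Each mouse gave 1 mammary adenocarcinoma of 750 mm3, from which cells positive for CD45, CD11b and F4/80 and negative for Ly6G were sorted and sequenced from the 3' end with a 10x kit. Age and treatment were not given in the sources used here. All shares below are shares of cells inside this gate, which selects for F4/80.

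Classical monocytes leave the bone marrow through the chemokine receptor CCR2, which binds CCL2 and CCL7, and enter inflamed and malignant tissue. There they lose surface Ly6C, encoded by Ly6c2, and gain macrophage genes such as the complement C1q chains. Plac8 and Chil3 are abundant in Ly6C-high blood monocytes, and Chil3, also called Ym1, is in addition a gene of alternatively activated macrophages. Lyve1 marks resident, vessel-associated macrophages, which is why its UMIs kept a cell out.

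The 3 libraries held 663, 2108 and 6978 kept cells and 12454677, 41097369 and 86178419 UMIs over all barcodes. Mice 2 and 3 shared 8 cell barcodes and the other pairs of mice 0. Mouse 1 stood apart in its share of monocyte-like cells, given below, so the main counts are also given without it. Nothing beyond the mouse separates the libraries in the labels, so batch and mouse cannot be told apart.

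The cells used as a baseline were 5853 kept cells with no UMI of Ccr2, Ly6c2, Plac8 or Chil3, whatever their Lyve1 count, called baseline cells below. A second set, 2739 cells with Ccr2 but none of Ly6c2, Plac8, Chil3 and Lyve1, is called Ccr2-only. Besides these, 144 cells met both gene requirements but carried Lyve1, and 143 carried a second gene without Ccr2 or Lyve1. Monocyte-like cells were deeper than the baseline in all 3 mice. Their median UMIs per cell were 15868, 31238 and 13364.5, against 14172, 11492.5 and 8672 in baseline cells and 15683, 17011 and 10529.5 in Ccr2-only cells. A rule that asks for UMIs picks deeper cells, so comparisons were repeated with comparison cells matched 1 to 1 on UMIs within each mouse.

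Plac8 was the second gene in most of these cells. It was present in 348 of 474 (73.4%), Chil3 in 218 (46.0%) and Ly6c2 in 81 (17.1%), and 217 cells had Plac8 alone against 100 with Chil3 alone and 14 with Ly6c2 alone. The mix differed by mouse. Plac8 was present in 91.5%, 83.1% and 62.8% of the cells of mice 1, 2 and 3, and Chil3 in 35.9%, 28.9% and 55.5%, so that Chil3 reached its largest share in mouse 3. Ly6c2 was present in 16.2%, 19.3% and 16.8%. These values chose the cells and are a description.

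The 5 genes of the rule lie apart in the genome (build mm10, GENCODE positions). Ccr2 is on chromosome 9 at 124101950 to 124113557 on the plus strand. Ly6c2 is on chromosome 15 at 75108158 to 75111970, Plac8 on chromosome 5 at 100553725 to 100572245 and Chil3 on chromosome 3 at 106147554 to 106167564, all on the minus strand, and Lyve1 is on chromosome 7 at 110850607 to 110863239, also minus. Ly6c2 and Chil3 have near copies. Of the 31-base words in the last 500 bases of the annotated Ly6c2 transcripts, 51.8% also occurred in Ly6c1, and 23.1% of those of Chil3 occurred in Chil4, so counts of these pairs are uncertain. Monocyte-like cells had 1 UMI of Ly6c1 and 0 of Chil4 in all.

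Their share was 17.6% of the cells of mouse 1 (exact Clopper-Pearson 95% interval 14.8 to 20.8%), 3.94% of mouse 2 (3.15 to 4.86%) and 3.93% of mouse 3 (3.48 to 4.41%). The mean was 8.50% ± 7.92 (SD, n = 3), and 3.93% ± 0.0076 without mouse 1. The intervals cover counting error only. With every cell thinned to 5000 UMIs, which kept the 559, 1833 and 6135 cells of mice 1, 2 and 3 with that many, the shares were 11.8%, 2.07% and 2.35%. Requiring 2 UMIs of each part gave 12.7%, 1.99% and 2.09%. Mouse 1 was highest under each of these rules, and mice 2 and 3 had overlapping intervals in each.

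**Figure D1:**
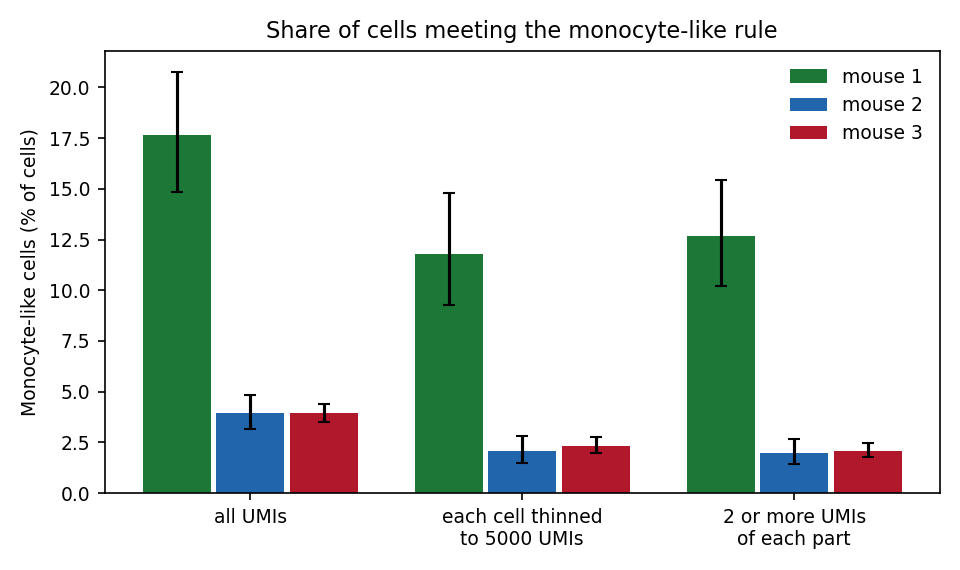
Share of cells meeting the monocyte-like rule, in percent of cells, for each mouse with all UMIs, with cells thinned to 5000 UMIs, and with at least 2 UMIs of each part. Bars are shares and whiskers exact 95% intervals. Mouse 1 reaches 17.6%, 11.8% and 12.7%, and mice 2 and 3 lie between 1.99% and 3.94%.

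At the edge of the rule, 26 cells had exactly 1 Ccr2 UMI and 1 UMI of a second gene, while 272 had 2 or more of both. Just outside it, the 143 cells with a second gene and no Ccr2 had a median of 1 second-gene UMI in every mouse, and the Ccr2-only cells had median Ccr2 UMIs of 3, 4 and 2. In 31 cells of the tumour epithelium, which should lack these genes, Ccr2 had a UMI in 1 cell (3.23%) and Ly6c2, Plac8 and Chil3 in 0, which allows a share of up to 9.68%. The epithelium cells had a median of 3334 UMIs and all kept cells 10213. In all kept cells the shares were 38.3% for Ccr2, 5.77% for Plac8, 3.32% for Chil3 and 1.26% for Ly6c2. The last 3 lie under the limit that the 31 cells allow, so at this depth these cells cannot tell the 3 shares from free RNA.

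Whether detection of the genes of the rule repeats was examined in UMIs that the rule had not used. Each cell's UMIs were split at random into 2 equal parts, the rule was applied to 1 part and the level read in the other. In the unused part Ccr2 stood at 485, 275 and 284 CPM (a gene's UMIs scaled to a common total of all UMIs in the cell group) in the monocyte-like cells of mice 1, 2 and 3, against 22.4, 27.5 and 31.6 CPM in baseline cells. Plac8 stood at 215, 94.2 and 121 CPM against 3.20, 1.39 and 1.77 CPM. Chil3 stood at 39.1, 27.0 and 161 CPM against 0.356, 0.116 and 1.13 CPM. Ly6c2 stood at 22.7, 30.3 and 29.5 CPM against 0, 0.116 and 0.161 CPM. These 4 genes were thus far above the baseline cells in UMIs that played no part in choosing the cells, in 3 of 3 mice. Both parts come from the same cells, so this describes how well detection repeats and does not say what the cells are. Ccr2 did not separate the cells from Ccr2-only cells, which stood at 393, 275 and 227 CPM in their unused part. The requirement of no Lyve1 carried over less well. Lyve1 stood at 1.82, 13.1 and 11.6 CPM in the unused part of the monocyte-like cells, with a UMI in 1.14%, 14.3% and 6.15% of them, against 0, 11.9 and 17.9 CPM and 0%, 2.51% and 3.14% of baseline cells. So 0 Lyve1 UMIs in 1 part did not mean 0 in the other. The share of cells with Lyve1 was above that of baseline cells in each mouse, but in mouse 1 it rested on 2 UMIs. These shares were not scaled to depth, and the monocyte-like cells were deeper.

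Macrophage genes were present at high levels beside the genes of the rule. C1qa, a complement C1q chain, stood at 3805, 5065 and 5797 CPM. Adgre1, which encodes the sorted F4/80 antigen, stood at 371, 279 and 288 CPM against 305, 279 and 278 CPM in baseline cells, with a log2 fold change of 0.10 (SE 0.088, adjusted p = 0.490). Csf1r, the receptor for colony-stimulating factor 1, differed by -0.03 (SE 0.078, adjusted p = 0.855), and Ptprc, which encodes CD45, by 0.02 (SE 0.081, adjusted p = 0.919). Monocyte-like is therefore used only as the name of the rule, since the cells carry macrophage genes as well.

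Against the baseline cells, 1405 of 10185 genes tested outside the rule passed an adjusted p of 0.05, which is 13.8% of them, with 922 higher (9.05%) and 483 lower (4.74%). The test was edgeR's quasi-likelihood F test on UMIs summed per mouse and cell group, 2-sided, with the mouse as a block and Benjamini-Hochberg adjustment over all genes. With UMI-matched baseline cells 719 genes passed, of which 653 also passed without matching, all in the same direction. With the rule and the sums on separate parts of the UMIs 941 passed, 812 of them shared. DESeq2 called 875 genes, and leaving out mouse 1, 2 or 3 gave 1791, 565 and 806.

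Of 30 monocyte genes outside the rule that were tested, 17 were higher and 2 lower, with a median log2 fold change of 1.36 against -0.02 over all genes tested. Their largest calls were Ifitm6, Vcan and F10. Ifitm6, an interferon-induced transmembrane family gene of blood phagocytes, had 29.7, 68.8 and 51.3 CPM in the monocyte-like cells of mice 1, 2 and 3 and 0.816, 1.65 and 1.42 CPM in baseline cells. The groups did not overlap, and the log2 fold change was 5.22 (SE 0.16, adjusted p = 1.93e-09). Vcan, which encodes the matrix proteoglycan versican, had 29.7, 35.3 and 14.6 CPM against 0.408, 2.06 and 0.875 CPM, a log2 fold change of 4.28 (SE 0.26, adjusted p = 3.15e-06). F10, coagulation factor X, had 36.3, 52.4 and 22.3 CPM against 1.84, 4.05 and 1.47 CPM, a log2 fold change of 3.87 (SE 0.17, adjusted p = 3.91e-08).

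Hp, which encodes the haemoglobin scavenger haptoglobin, was lower in level but also higher in the monocyte-like cells. It had 16.1, 6.06 and 18.6 CPM against 0.816, 0 and 2.53 CPM (log2 fold change 3.46, SE 0.56, adjusted p = 0.0186), and the matched comparison missed the threshold at an adjusted p of 0.0532. Ifitm3, which restricts virus entry, had 2040, 1365 and 1076 CPM against 212, 168 and 183 CPM, with a log2 fold change of 2.94 (SE 0.15, adjusted p = 3.84e-05). The calcium-binding genes S100a4 and S100a6, named after their values were seen, did not pass despite groups far apart. S100a4 had 754, 564 and 555 CPM against 27.6, 50.9 and 67.7 CPM (log2 fold change 3.67, SE 0.50, adjusted p = 0.0642), and S100a6 had 856, 1029 and 779 CPM against 31.8, 89.8 and 93.9 CPM (3.69, SE 0.49, adjusted p = 0.0611). Without robust dispersion estimates their adjusted p fell to 3.52e-05 and 2.89e-05. Fn1, which encodes fibronectin, behaved alike, with 932, 1137 and 903 CPM against 90.6, 106 and 246 CPM, a log2 fold change of 2.87 (SE 0.52) and an adjusted p of 0.0996, or 0.00013 without robust estimates. The 2 monocyte genes called lower were Mgst1, a glutathione transferase (log2 fold change -0.52, SE 0.094, adjusted p = 0.00313), and Msrb1, a methionine sulfoxide reductase (-0.51, SE 0.084, adjusted p = 0.00179). Mgst1 missed the threshold with matched cells (adjusted p = 0.0518).

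UMIs of these genes were counted in part of the cells. Of the 474 monocyte-like cells, 241 had no UMI of Hp, F10, Ifitm6 or Vcan, 115 had 1 of the 4 genes and 118 had 2 or more. At these levels and depths a cell that expresses a gene often has no UMI of it, so these counts do not say how many cells lack the genes. The share with at least 1 was 57.3%, 65.1% and 40.9% in mice 1, 2 and 3. In UMI-matched baseline cells it was 5.13%, 13.3% and 8.03%, and in UMI-matched Ccr2-only cells 17.1%, 42.2% and 18.6%, so the monocyte-like cells were highest in each mouse and Ccr2-only cells lay between. In the 31 epithelium cells Ifitm6 and F10 had a UMI in 0, Hp in 1 (3.23%) and Vcan in 3 (9.68%), against 31.6%, 22.8%, 13.7% and 18.6% of monocyte-like cells at a median of 15618.5 UMIs.

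Of the lists, alternative activation and matrix handling had the largest share called higher, with 10 of 15 higher, 1 lower and a median log2 fold change of 2.17. Retnla, a secreted product of alternatively activated macrophages, was the largest, but its level spanned a wide range between mice. It had 145, 4037 and 1426 CPM in the monocyte-like cells and 2.25, 73.1 and 48.3 CPM in baseline cells (log2 fold change 5.39, SE 0.29, adjusted p = 0.00179). Without mouse 1 its adjusted p was 0.136. Cd209a, a C-type lectin gene of monocytes and dendritic cells, had 41.8, 19.6 and 9.04 CPM against 3.67, 1.44 and 2.32 CPM (2.91, SE 0.38, adjusted p = 0.00517). F13a1, the A chain of coagulation factor XIII, had 595, 426 and 402 CPM against 49.6, 82.4 and 81.2 CPM and lay at the threshold (2.70, SE 0.37, adjusted p = 0.0497). It missed the threshold without mouse 2 (adjusted p = 0.183) and with matched cells (adjusted p = 0.0619). Mrc1, the mannose receptor CD206, had 796, 637 and 459 CPM against 163, 258 and 168 CPM (1.66, SE 0.23, adjusted p = 0.0220). Mmp14, a membrane-bound metalloproteinase, was the gene called lower (-0.35, SE 0.090, adjusted p = 0.0221), a call lost without mouse 2 (0.0751), without mouse 3 (0.113) and with matched cells (0.0787).

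Mature macrophage genes were split, with 11 of 26 lower and 3 higher. Of the 26 folds 13 were above 0, and their median log2 fold change was -0.02, as over all genes tested. Vcam1, an adhesion molecule, had 131, 257 and 136 CPM against 409, 436 and 286 CPM (-1.16, SE 0.17, adjusted p = 0.0119), without overlap. C1qa fell from 6426, 7934 and 7810 CPM to the levels given above (-0.62, SE 0.081, adjusted p = 0.000417). The genes called higher included Mrc1 and Pf4, which encodes platelet factor 4 and had 1052, 489 and 491 CPM against 233, 214 and 148 CPM (1.69, SE 0.19, adjusted p = 0.00669). In lipid-associated macrophage genes 4 of 14 were lower, led by Cd9, a tetraspanin (-0.56, SE 0.089, adjusted p = 0.00147), and Ctsd, cathepsin D (-0.56, SE 0.086, adjusted p = 0.00121), and 1 was higher, Gpnmb (2.44, SE 0.35, adjusted p = 0.0135). The call of Gpnmb was lost without mouse 2 (adjusted p = 0.116), and that of Vcam1 with matched cells (0.095).

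Several secreted and surface molecules differed. Among 9 chemokine genes 3 were higher and 1 lower. Ccl6 had 1480, 1532 and 1312 CPM against 148, 138 and 221 CPM (3.11, SE 0.23, adjusted p = 0.00423, and 0.208 without mouse 1), and Ccl9 had 822, 773 and 479 CPM against 162, 216 and 133 CPM (1.996, SE 0.11, adjusted p = 3.24e-06). The inflammatory list was split, with 6 of 19 higher and 4 lower. Ptgs2, which encodes the prostaglandin-forming enzyme COX-2, was higher (1.01, SE 0.11, adjusted p = 0.000136), while Il1a, encoding interleukin 1 alpha (-1.09, SE 0.093, adjusted p = 1.97e-05), and Tnf (-0.73, SE 0.093, adjusted p = 0.000336) were lower. Of 17 receptor genes 6 were higher, among them Csf2rb, the shared beta chain for GM-CSF (0.77, SE 0.13, adjusted p = 0.00623), and Cxcr4 (0.77, SE 0.12, adjusted p = 0.00225). Of 14 adhesion genes 5 were higher, with Cd44, the hyaluronan receptor, first (1.22, SE 0.098, adjusted p = 1.38e-05), followed by Itgam, which encodes CD11b (0.75, SE 0.14, adjusted p = 0.0104), and Itga4 (0.40, SE 0.11, adjusted p = 0.0308). Tnf (adjusted p = 0.0877) and Itga4 (0.115) missed the threshold with matched cells, and Itga4 also without mouse 2 (0.18) and without mouse 3 (0.102). Of 24 transcription factor genes 7 were higher and 0 lower. Irf4, a regulator of alternative activation, had 5.86, 42.1 and 13.5 CPM against 0.612, 4.05 and 3.19 CPM (2.73, SE 0.29, adjusted p = 0.000528).

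The calls of the other lists follow, beside 9.05% higher and 4.74% lower over all genes tested. MHC class II genes had 3 of 11 higher and 1 lower, and H2-Ab1 differed by 0.13 (SE 0.077, adjusted p = 0.284). In the non-classical monocyte list 2 of 11 were higher, and its best known genes did not pass: Cx3cr1 differed by -0.25 (SE 0.094, adjusted p = 0.101) and Nr4a1 by 0.17 (SE 0.086, adjusted p = 0.216). Irf8, a monocyte and dendritic cell factor, differed by -0.22 (SE 0.095, adjusted p = 0.154). The interferon gamma list had 4 of 15 higher and 1 lower, the cell cycle list 0 of 20 higher and 2 lower, the hypoxia and glycolysis list 3 of 19 higher and 4 lower, and the dissociation list 4 of 20 higher and 1 lower. Of 80 ribosomal protein genes 3 were lower and 0 higher, and of 13 mitochondrial genes 3 were lower and 0 higher. Of the 13 mitochondrial folds 0 were above 0, with a median log2 fold change of -0.15.

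**Figure D2:**
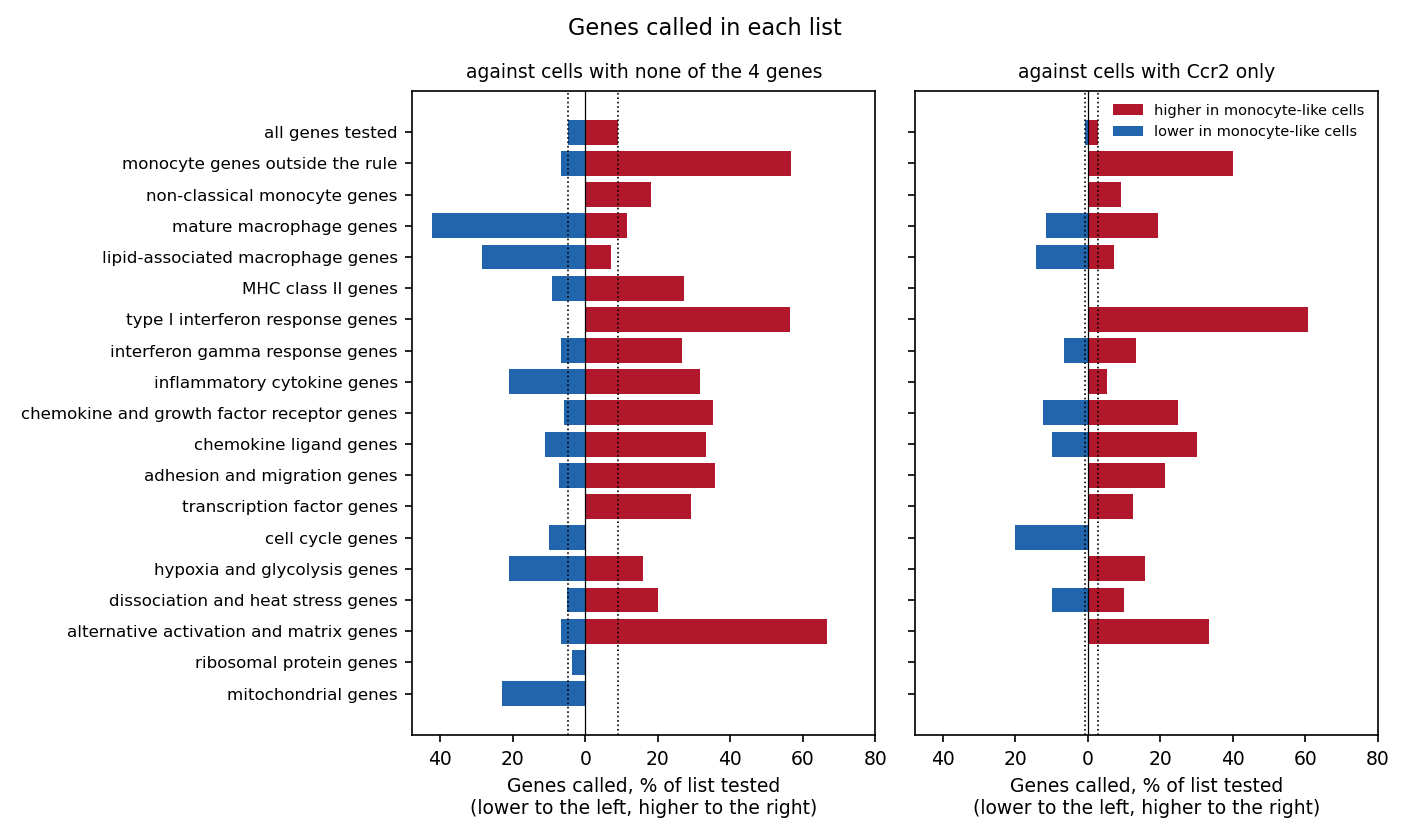
Percent of each list's tested genes called higher (to the right) and lower (to the left) in monocyte-like cells, against baseline cells on the left and Ccr2-only cells on the right. Dotted lines mark the percent over all genes tested (9.05% higher and 4.74% lower on the left). The alternative activation list reaches 10 of 15 on the left, and the type I interferon list 14 of 23 on the right.

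Outside the lists, the largest higher calls were Timp1, Clec4b1, Dok2 and Nrg1. Timp1, an inhibitor of metalloproteinases, had 95.2, 84.5 and 68.2 CPM against 3.88, 3.71 and 3.85 CPM (4.33, SE 0.13, adjusted p = 1.93e-09). Its 3 baseline values lay close together and the 2 groups were far apart. Clec4b1, a C-type lectin gene of myeloid cells, had 53.8, 101 and 38.0 CPM against 4.08, 7.07 and 4.99 CPM (3.40, SE 0.20, adjusted p = 3.75e-05), and Dok2, an adaptor of tyrosine kinase signalling, had 88.6, 93.8 and 62.1 CPM against 6.33, 11.7 and 7.59 CPM (3.16, SE 0.14, adjusted p = 6.10e-07). Nrg1, a growth factor for ERBB receptors, had 167, 38.2 and 63.6 CPM against 13.5, 6.80 and 6.90 CPM (3.12, SE 0.19, adjusted p = 9.26e-05). Olr1, Mefv, Tppp3 and Pira2 completed the 8 largest, with log2 fold changes from 2.41 to 2.72. Without mouse 2 the calls of Olr1 (adjusted p = 0.219) and Tppp3 (0.272) were lost.

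Among the lower calls outside the lists, Wfdc18 had 20.9, 28.2 and 21.9 CPM against 79.0, 157 and 80.8 CPM (-2.10, SE 0.13, adjusted p = 1.32e-06). Wfdc18 is itself 1 of the 8 markers of the tumour epithelium. The other markers were also lower in the monocyte-like cells of each mouse. All 8 had UMIs in both groups. Their summed level, Wfdc18 included, was 42.9 to 74.3 CPM in the monocyte-like cells and 153 to 551 CPM in baseline cells. Csn3 and Wfdc18 were its largest parts in both groups. Yet 20.5%, 26.5% and 30.3% of the monocyte-like cells of mice 1, 2 and 3 had 2 or more of the markers. Of baseline cells 6.176%, 7.304% and 7.999% did. These shares were not scaled to depth, and the part of depth was not tested. Cells carrying 4 or more epithelium markers, or 2 or more markers of 5 other lineages, were then left out. Wfdc18 is 1 of the markers that chose these cells, so its fold in this setting is not an independent check. There its fold turned to 0.74 (adjusted p = 0.0505), while 1440 genes were called in all. The other 4 largest, Lilra5, Tnfsf13b, Rnf121 and Nav2, had log2 fold changes from -1.43 to -1.20 and were called lower there too. Without mouse 2 Lilra5, Tnfsf13b and Nav2 missed the threshold (adjusted p = 0.1, 0.0869 and 0.0928), and so did Lilra5 without mouse 3 (0.0623) and with matched cells (0.073) and Wfdc18 with matched cells (0.425). The conventional dendritic cell list, with 7 of 8 genes detected, summed to 134 to 183 CPM in the monocyte-like cells against 56.2 to 89.6 CPM in baseline cells and 128 to 145 CPM in Ccr2-only cells. Most of this was Naaa, a lysosomal amidase, at 123, 105 and 119 CPM against 53.1, 44.5 and 68.5 CPM, and Cd209a. Xcr1 was below the baseline cells in all 3 mice with 2 UMIs, Ccr7 was below them in mice 1 and 3, Clec9a was at 0, and Flt3 and Zbtb46 had 4 and 12 UMIs. Neutrophil markers, with 4 of 8 detected, summed to 5.50, 16.4 and 10.1 CPM in mice 1, 2 and 3 against 5.72, 3.64 and 2.93 CPM. Fibroblast markers, all 6 detected, summed to 17.9, 5.35 and 5.35 CPM against 2.25, 3.64 and 3.97 CPM, with the widest gap in mouse 1. Plasmacytoid dendritic cell markers summed to 370.3, 346 and 342 CPM against 355, 284 and 294 CPM, mostly from Bst2 and Tcf4, while Siglech was below the baseline cells in each mouse. With the epithelium, fibroblast, neutrophil and other cells left out as above, the log2 fold change of Vcan was 4.61 and that of Timp1 4.57, both called. Beyond this the part of these cell types was not tested.

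The comparison with Ccr2-only cells asks which genes go with Ly6c2, Plac8 or Chil3 among cells that already carry Ccr2. Of 9893 genes tested 341 passed, or 3.45%, with 276 higher (2.79%) and 65 lower (0.657%). Most of the largest differences against the baseline were not called here. Retnla had 946, 5264 and 1625 CPM in Ccr2-only cells, above the monocyte-like cells in all 3 mice (log2 fold change -0.97, SE 0.77, adjusted p = 0.675). Ifitm6 had 15.5, 76.5 and 25.9 CPM there (0.50, SE 0.31, adjusted p = 0.545), F10 15.9, 54.0 and 15.7 CPM (0.39, SE 0.19, adjusted p = 0.361) and Fn1 647, 1324 and 725 CPM (0.20, SE 0.14, adjusted p = 0.574). For these genes the Ccr2-only cells of mouse 2 lay above its monocyte-like cells. Timp1 differed by 0.96 (SE 0.38, adjusted p = 0.405), S100a6 by 0.85 (SE 0.32, adjusted p = 0.396), Ccl6 by 0.71 (SE 0.26, adjusted p = 0.368) and Clec4b1 by 0.14 (SE 0.13, adjusted p = 0.668). A missed threshold does not show that the levels are alike.

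The largest call was Ly6a, which encodes stem cell antigen 1 and is induced by interferons. It had 149, 119 and 69.0 CPM in the monocyte-like cells and 6.79, 4.83 and 6.11 CPM in Ccr2-only cells, with no overlap (4.06, SE 0.24, adjusted p = 0.00298). Baseline cells had 3.27 to 6.93 CPM of it, near the Ccr2-only cells, and that comparison gave a log2 fold change of 4.13 (SE 0.52) at an adjusted p of 0.0518. Of the 31-base words in its last 500 bases, 9.18% occur in Ly6c2, so a small part of its count may be uncertain. With the rule and the sums on separate parts of the UMIs its log2 fold change was 3.47 and its adjusted p 0.328. Monocyte genes that went higher still against Ccr2-only cells numbered 12 of 30, with 0 lower and a median of 0.39 against 0.00053 over all genes. Hp had 16.1, 6.06 and 18.6 CPM against 4.21, 2.12 and 2.41 CPM (2.40, SE 0.26, adjusted p = 0.000492). Vcan differed by 1.70 (SE 0.21, adjusted p = 0.00273), Ms4a4c, a membrane-spanning gene of monocytes, by 1.56 (SE 0.097, adjusted p = 2.57e-06) and Ifitm3 by 1.21 (SE 0.099, adjusted p = 0.000385). F13a1, which belongs to the alternative activation and matrix list and not to the monocyte list, differed by 1.01 (SE 0.086, adjusted p = 0.000136).

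**Figure D3:**
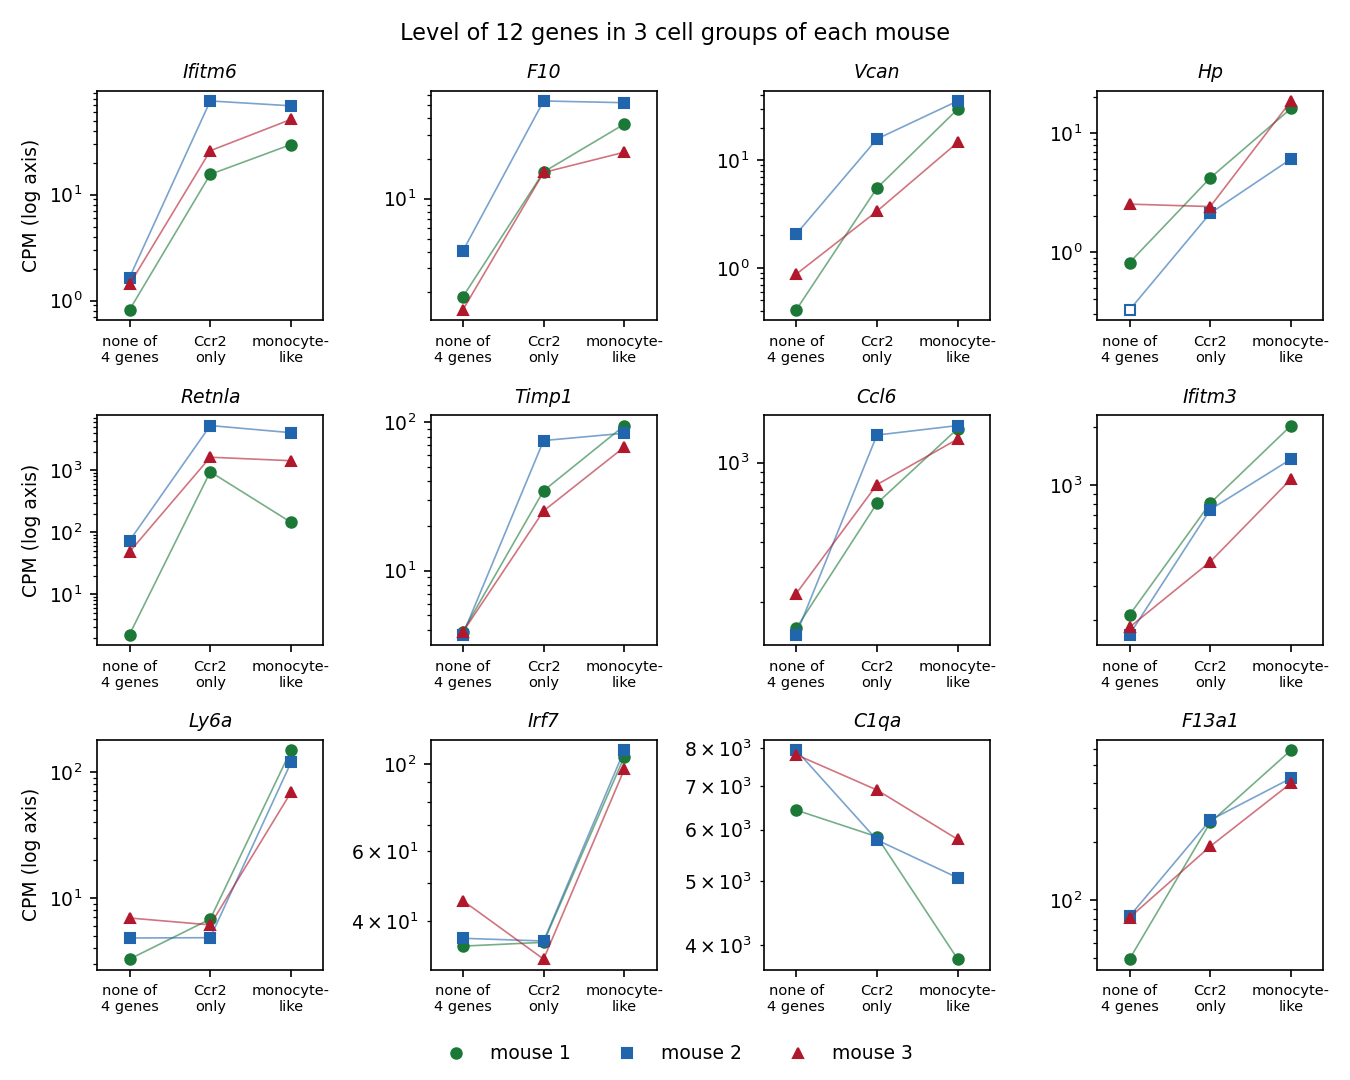
CPM of 12 genes (log axes) in baseline cells, Ccr2-only cells and monocyte-like cells of each mouse. Each point is 1 mouse and lines join its groups, and the open symbol marks 0 counts of Hp in the baseline cells of mouse 2. Ifitm6, F10 and Retnla stand high in both Ccr2 groups, Ly6a and Irf7 in the monocyte-like cells, and C1qa steps down in each mouse.

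Type I interferon response genes were called in the largest share of any list in this comparison. Of 23 tested, 14 were higher and 0 lower, the fold was above 0 for all 23, and their median log2 fold change was 0.82 against 0.00053 over all genes. Against baseline cells 13 of the 23 were higher and 0 lower, with a median of 0.59. With UMI-matched baseline cells Irf7 and Ly6e did not pass (adjusted p = 0.153 and 0.128), while with UMI-matched Ccr2-only cells both passed at 5.72e-05. The 2 comparisons share the monocyte-like cells, so they do not support each other. The 23 genes summed to 2015, 1699 and 1706 CPM in the monocyte-like cells of mice 1, 2 and 3. In the 144 cells that met both gene requirements but carried Lyve1 the sums were 1765, 1883 and 1640 CPM. The summed level was thus not particular to the cells without Lyve1, but Ly6e was a large part of it. In the 144 cells Ly6e had 1106, 598 and 739 CPM, in each mouse above the monocyte-like cells. Irf7 had 47.1, 80.5 and 59.5 CPM in them, in each mouse below the monocyte-like cells. So the sum does not speak for each gene of the list. Irf7, the interferon regulatory factor that amplifies type I interferon, had 104, 108 and 97.0 CPM in the monocyte-like cells and 35.3, 35.5 and 32.0 CPM in Ccr2-only cells (1.60, SE 0.077, adjusted p = 9.06e-08). The values of each group lay close together in the 3 mice. Ly6e had 799, 481 and 521 CPM against 332, 200 and 229 CPM (1.23, SE 0.060, adjusted p = 9.06e-08).

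Further interferon genes are named here after their values were seen, some of them for the promoters below. Oasl2, a 2'-5' oligoadenylate synthetase-like gene, differed by 1.26 (SE 0.11, adjusted p = 3.00e-05), and Zbp1, a sensor of Z-form nucleic acid, by 1.04 (SE 0.095, adjusted p = 4.96e-05). Slfn5 had 136, 98.8 and 61.8 CPM against 53.1, 57.3 and 30.4 CPM (1.03, SE 0.096, adjusted p = 7.04e-05). Isg15, a ubiquitin-like modifier, had 124, 164 and 172 CPM against 82.8, 122 and 85.2 CPM (0.70, SE 0.11, adjusted p = 0.0106). Ifit3, which binds foreign RNA together with related IFIT proteins, had 15.02, 12.5 and 20.1 CPM against 4.21, 8.13 and 8.56 CPM (1.12, SE 0.18, adjusted p = 0.00434, and 0.116 without mouse 3). Cxcl10, a further interferon-induced gene of the list, differed by 0.04 (adjusted p = 0.984), while the interferon gamma list had 2 of 15 higher and 1 lower.

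**Figure D4:**
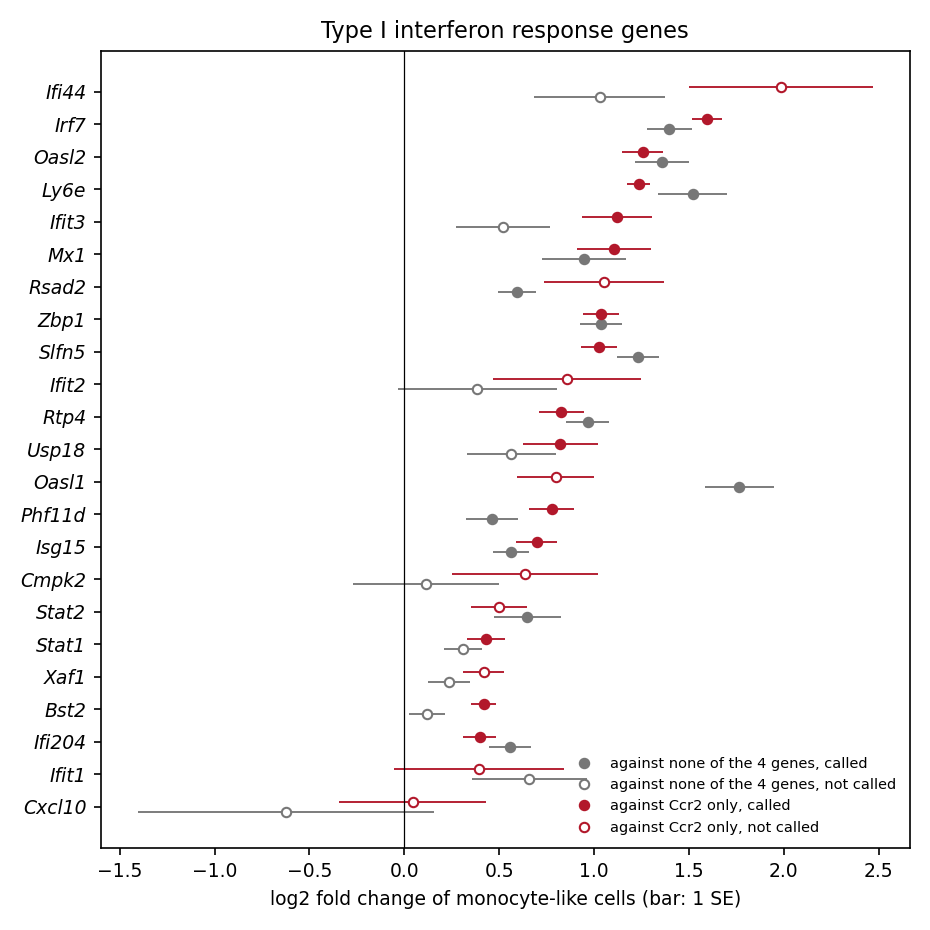
Log2 fold change of 23 type I interferon response genes in monocyte-like cells against baseline cells (grey) and Ccr2-only cells (red). Bars are 1 SE, and filled points passed an adjusted p of 0.05. Against Ccr2-only cells all 23 points lie above 0 and 14 are filled, with Irf7 at 1.60.

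Interferon response genes share a promoter element bound by interferon regulatory factors and STAT complexes, so 3 of the called genes are shown with it. The motif searched was GAAA, any 2 bases, GAAA (GAAANNGAAA) on both strands of windows from 250 bases before to 50 after each start, in RefSeq sequence of build GRCm38.p6. Matches may overlap. Of 23 list genes 16 had a window, and 8 of these held a match, against 1079 of all 27025 genes with a window (3.99%). Counted by window, 1131 of all 32851 held one (3.44%). Among the list genes called higher against Ccr2-only cells 7 had a window and 4 held a match, and among those not called 4 of 9 did. The called genes whose windows held no match were Irf7, Oasl2 and Phf11d. None of the windows of Ccr2, Ly6c2, Plac8 and Chil3 held these letters, which does not show whether interferon induces these genes. A match describes the sequence and does not show binding. The 200 bases before each start follow, 5′ to 3′ on the gene's strand, with matches on either strand in capitals.
Isg15, chr4:156200819-156201018, minus strand: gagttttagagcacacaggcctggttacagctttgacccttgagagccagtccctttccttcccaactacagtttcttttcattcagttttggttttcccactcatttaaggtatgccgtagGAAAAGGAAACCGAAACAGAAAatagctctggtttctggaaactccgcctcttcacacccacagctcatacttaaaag
Ifit3, chr19:34583329-34583528, plus strand: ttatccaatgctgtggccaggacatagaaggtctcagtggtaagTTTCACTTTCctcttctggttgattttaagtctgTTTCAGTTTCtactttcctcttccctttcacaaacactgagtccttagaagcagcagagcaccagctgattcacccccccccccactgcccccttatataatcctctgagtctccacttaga
Slfn5, chr11:82951902-82952101, plus strand: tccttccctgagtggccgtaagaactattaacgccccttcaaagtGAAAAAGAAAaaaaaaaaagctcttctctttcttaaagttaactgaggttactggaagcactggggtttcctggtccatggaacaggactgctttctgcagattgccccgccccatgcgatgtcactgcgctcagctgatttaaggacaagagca
Isg15 held 3 overlapping matches, starting 78, 72 and 66 bases before the start site, Ifit3 held 2, starting at 156 and 122 bases, and Slfn5 held 1 at 155 bases.

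Chemokines that recruit CCR2-bearing cells were also higher in the monocyte-like cells than in Ccr2-only cells. Ccl7 had 2607, 2238 and 1486 CPM against 1015, 1125 and 805 CPM (1.07, SE 0.083, adjusted p = 3.00e-05), and Ccl2 had 1651, 1106 and 1432 CPM against 837, 648 and 862 CPM (0.82, SE 0.066, adjusted p = 1.26e-05). With Ccl12 they made 3 of 10 chemokine genes higher, and 1 was lower. Both genes were named after their values were seen. Against baseline cells their folds were larger but missed the threshold, at 2.29 for Ccl7 (SE 0.65, adjusted p = 0.194) and 1.93 for Ccl2 (SE 0.39, adjusted p = 0.105). The 10 chemokine genes summed to 9651, 7781 and 6684 CPM in the monocyte-like cells, against 2386, 3180 and 3083 CPM in baseline cells and 4631, 5509 and 4511 CPM in Ccr2-only cells. In the cells that met both gene requirements but carried Lyve1 the sums were 11459, 9438 and 11217 CPM, in each mouse above the monocyte-like cells. Other large calls by the naming rule were Hal, a histidine-degrading enzyme (1.52, SE 0.18, adjusted p = 0.0271), Olr1, a receptor for oxidised LDL (1.45, SE 0.16, adjusted p = 0.00184), and Nrg1 (1.27, SE 0.092, adjusted p = 4.73e-06). Hal missed the threshold without mouse 2 (adjusted p = 0.0644).

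The mature macrophage list had 5 of 26 higher and 3 lower. Mrc1 was higher by 0.54 (SE 0.11, adjusted p = 0.0455), and C1qa was lower by -0.36 (SE 0.085, adjusted p = 0.0450), from 5851, 5786 and 6897 CPM in Ccr2-only cells. The largest lower calls were Mmp12, a macrophage elastase (-0.68, SE 0.099, adjusted p = 0.00578), Pclaf, a replication factor (-0.62, SE 0.097, adjusted p = 0.00298), Cd81, a tetraspanin (-0.51, SE 0.069, adjusted p = 0.00130), Ramp1 (-0.50, SE 0.087, adjusted p = 0.00606) and Commd8 (-0.48, SE 0.099, adjusted p = 0.0205). With matched cells Pclaf, Ramp1, Commd8 and C1qa missed the threshold (adjusted p = 0.101, 0.192, 0.106 and 0.11), and without mouse 3 Mrc1, C1qa and Ramp1 did (0.0593, 0.204 and 0.0788). Cell cycle genes had 4 of 20 lower and 0 higher, with a median of -0.35. The 20 genes summed to 574, 782.5 and 1049 CPM in the monocyte-like cells of mice 1, 2 and 3. The sums were 663, 1036 and 1285 CPM in Ccr2-only cells and 839, 871 and 970 CPM in baseline cells. Cells with 2 or more UMIs of G2 and mitosis genes were counted against baseline cells only, without scaling to depth. They made up 30.8%, 54.2% and 33.2% of the monocyte-like cells and 24.7%, 24.3% and 18.6% of baseline cells. Depth also differed between these cells, as given above, and its part was not tested. No MHC class II gene of 11 was called, and all 11 folds lay below 0 (median -0.21). With UMI-matched Ccr2-only cells 172 genes passed, 146 of them shared with the 341 and all of these in the same direction. Of 30 genes that were called and are followed by name, 21 passed again, 8 did not, and Cxcl9 changed sign. Without the mouse as a block 2 genes passed, Ly6a and Irf7.

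Within the monocyte-like cells, the 81 with Ly6c2 (19, 16 and 46 in mice 1, 2 and 3) were compared with the 393 without it. None of 7862 genes passed edgeR (0%), 339 had an unadjusted p under 0.05, and DESeq2 called 1, Ly6a. Hp had 17.6, 14.1 and 60.4 CPM with Ly6c2 and 15.8, 3.34 and 11.6 CPM without (1.70, SE 0.35, adjusted p = 0.246). C1qa had 2894, 4956 and 5055 CPM against 3987, 5102 and 5921 CPM (-0.27, SE 0.078, adjusted p = 0.652). Leaving out mouse 1, 2 or 3 gave 7, 33 and 10 calls. The few cells per mouse limit what this comparison can detect.

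Cells with Plac8 and cells with Chil3 differed in several genes, given as values with no test since in mouse 1 only 9 cells had Chil3 without Plac8. The groups held 74, 57 and 111 cells with Plac8 and no Chil3, 33, 12 and 61 with both, and 9, 12 and 91 with Chil3 and no Plac8 in mice 1, 2 and 3. The summed level of the 23 type I interferon genes was 1902, 1964 and 2148 CPM with Plac8 and no Chil3 and 1094, 811 and 1080 CPM with Chil3 and no Plac8. Ccr2-only cells had 1074, 1059 and 901 CPM. The cells with Chil3 and no Plac8 lay near them in mouse 1, below them in mouse 2 and above them in mouse 3. The cells with Plac8 and no Chil3 lay above them in each mouse. Cells with both genes had 2368, 1308 and 1839 CPM.

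Irf7 had 111, 136 and 123 CPM with Plac8 and no Chil3 against 15.5, 14.8 and 55.7 CPM with Chil3 and no Plac8. Ly6a had 120, 153 and 98.3 CPM against 69.9, 11.1 and 8.56 CPM, and Ms4a4c had 173, 113 and 131 CPM against 38.8, 40.7 and 63.1 CPM. The values with Chil3 and no Plac8 rest on few UMIs in mice 1 and 2. They were 2 and 4 UMIs of Irf7, 9 and 3 of Ly6a and 5 and 11 of Ms4a4c. These 3 genes were chosen after their values were seen, and how many other genes differ as much was not counted. Retnla had 177, 5331 and 2066 CPM against 7.76, 1237 and 970 CPM, and was higher with Plac8 and no Chil3 within each mouse. Cd209a had 67.3, 24.7 and 14.9 CPM against 0, 3.70 and 2.14 CPM. C1qa did not separate them, with 4033, 4956 and 5887 CPM against 1288, 4243 and 6120 CPM.

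**Figure D5:**
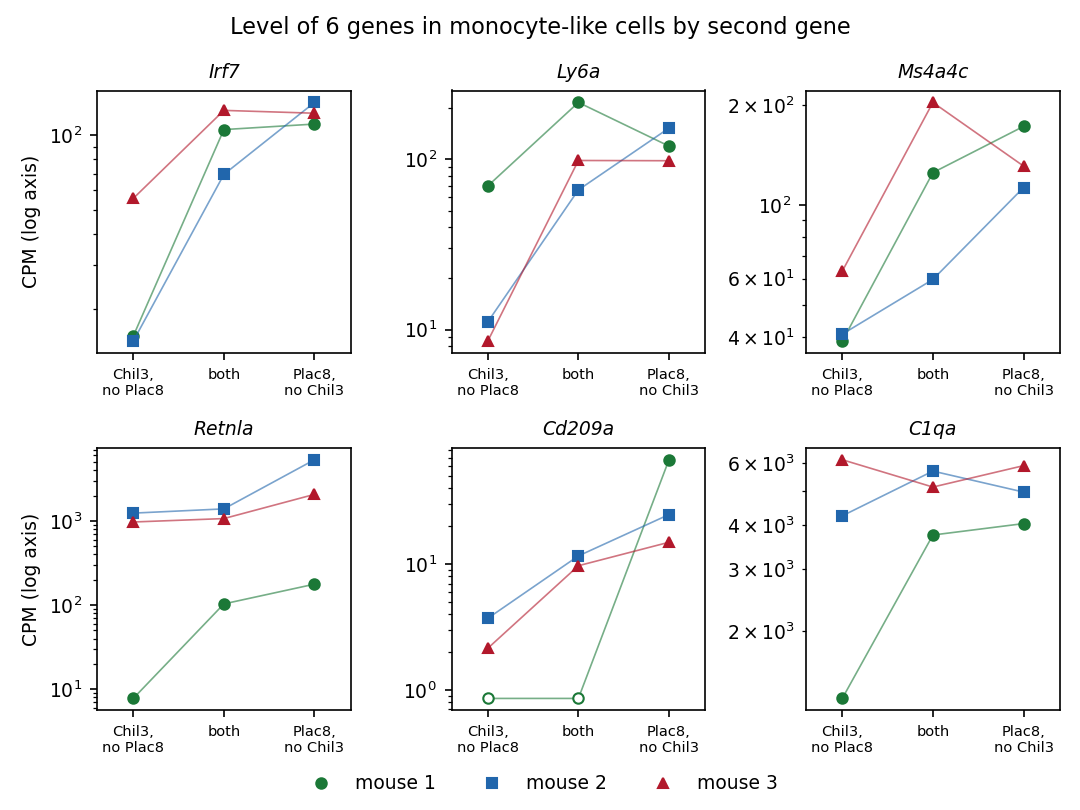
CPM of 6 genes (log axes) in monocyte-like cells with Chil3 and no Plac8, with both, and with Plac8 and no Chil3, for each mouse. Each point is 1 mouse, lines join its groups, and open symbols mark 0 counts of Cd209a in mouse 1. Irf7, Ly6a and Ms4a4c are lowest with Chil3 and no Plac8 in every mouse, while C1qa is highest there in mouse 3 (6120 CPM).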

How the data were processed

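Single-cell RNA of 3 mouse tumours (1 group, n = 3 mice) was analysed. Per the file headers and the submitters' processing notes, the authors deposited raw UMI counts per gene and barcode, made with Cell Ranger 3.0.2 on build mm10. The annotation version is not given in the labels. Members, gene lists and alternatives were chosen with earlier results of these data known.

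Filters removed 411, 362 and 451 barcodes. UMIs were summed per mouse and cell group, and the 5 genes of the rule were left out of tests. edgeR 4.0.16 in R 4.3.3 was run with TMM, filterByExpr, robust quasi-likelihood F tests and the mouse as a block, since both groups of a mouse come from the same animal. Standard errors were derived from the fold change and the F statistic (absolute log2 fold change over the root of F), and p-values were adjusted by Benjamini-Hochberg over all genes. The fits were tested on simulated data. Named genes passed with the same sign in 3 of 3 mice, as the 3 largest higher and 2 largest lower of each list (20 CPM or more) and the 8 largest higher and 5 largest lower outside lists, or in the Ccr2-only comparison overall (50 CPM or more). A fixed set (such as Hp, F10, Fn1, C1qa and Csf1r) was given whatever its result. Some genes that the rule names are not reported here. Genes given outside this rule were chosen after their values were seen. They are Ifitm3, Ly6a and the S100a genes against baseline cells, Retnla, Timp1, S100a6, Ccl6, Clec4b1, Cxcl9 and Cxcl10 against Ccr2-only cells, those marked in the text, and the genes given by second gene or in the closing section.

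Alternatives were DESeq2 1.42.0, DESeq2 size factors, no filter on low counts, other cell filters, thinning, matched cells, split UMIs and each mouse left out. Scrublet in scanpy 1.11.5 called 26 doublets (0.267%), too few for a working caller, so the 430 highest scores (0.8% per 1000 cells) were left out as an alternative. Robust estimation off, and fewer lineages left out, were added after seeing the data. Cells without a group in the rule entered no test.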

Additional observations from a re-analysis of the deposited data

How the results depend on the processing

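Against baseline cells the 1405 calls became 311 without the mouse as a block (no replicate block), 875 with DESeq2, 392 with cells of other lineages left out, 719 with matched cells and 565 to 1791 with 1 mouse left out. Against Ccr2-only cells the 341 calls became 2 without the block, 139 with DESeq2, 797 with no filter, 51 with other lineages left out, 172 with matched cells, 167 on separate parts and 162 to 677 with 1 mouse left out. For Ly6c2 the 0 calls became 1 with DESeq2, 32 with no filter, 2 without cells with G2 and mitosis UMIs, 1 with fewer lineages left out and 7 to 33 with 1 mouse left out. The cause was not tested. The lineage removal took 69.0% to 85.5% of the monocyte-like cells, since its B cell and plasmacytoid lists hold genes expressed throughout.

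Signs turned against baseline cells for Gbp7 (-0.51 with other lineages left out), Wfdc18 (0.74 with fewer left out) and Csf1r (0.11 matched), and for genes near 0. Ptprc turned to -0.00142 with no filter, -0.028 at 25% mitochondrial UMIs, -0.27 thinned, -0.31 with other lineages left out and -0.0059 at 2 UMIs. Nr4a1 turned to -0.15 thinned, -0.31 with other lineages left out and -0.10 without cells in G2 and mitosis, and Adgre1 to -0.040 thinned and -0.23 with other lineages left out. Against Ccr2-only cells Nr4a1 turned to -0.14, -0.21, -0.12, -0.049, -0.016 and -0.011 (thinned, other lineages, G2 and mitosis, matched, 2 UMIs, without mouse 1, with a range up to 0.11 when 1 mouse was left out). Adgre1 turned to -0.092, -0.14, -0.061 and -0.015 (thinned, other lineages, G2 and mitosis, without mouse 2, with a range up to 0.052 when 1 mouse was left out). Cxcl9 turned to 0.18 matched, Fn1 to -0.014 on separate parts, Ptprc to 0.00046 without G2 and mitosis cells, and Clec4b1 to -0.015 at 2 UMIs. With 1 mouse left out Clec4b1 ranged from -0.014 to 0.34, Irf8 from -0.14 to 0.0042 and Csf1r from -0.078 to 0.018. Between cells with and without Ly6c2, C1qa turned to 1.44 with other lineages left out.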

Other observations

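The 143 cells with Ly6c2, Plac8 or Chil3 but no Ccr2 and no Lyve1 (8, 21 and 114 in mice 1, 2 and 3) carried some of these genes and not others. Irf7 stood at 60.6, 111 and 202 CPM and Ms4a4c at 60.6, 114 and 234 CPM in mice 1, 2 and 3, above the monocyte-like cells in mice 2 and 3 and below them in mouse 1. Ly6a stood at 17.3, 192 and 233 CPM, from 2, 57 and 319 UMIs. The 23 type I interferon genes summed to 1152, 1356.5 and 2952 CPM, above the monocyte-like cells in mouse 3 and below them in mice 1 and 2. Ifitm6 had 0, 1 and 2 UMIs in them (0, 3.37 and 1.46 CPM), and Vcan 0, 1 and 0. Retnla stood at 8.66, 145 and 29.9 CPM, far below the monocyte-like cells in each mouse. C1qa stood at 4824, 6604 and 7030 CPM. The values of mouse 1 rest on 8 cells, and none of this was tested.

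The 144 cells that met both gene requirements and carried Lyve1 (7, 33 and 104 in mice 1, 2 and 3) had median UMIs of 17589, 55376 and 23499.5, above the monocyte-like, Ccr2-only and baseline cells of the same mouse. Ifitm6 stood at 47.1, 67.2 and 47.4 CPM in them, against 29.7, 68.8 and 51.3 CPM in the monocyte-like cells. Folr2, a folate receptor of resident macrophages, stood at 600, 279 and 357 CPM. It stood at 270, 109 and 174 CPM in the monocyte-like cells and 39.2, 63.2 and 85.0 CPM in baseline cells. So the monocyte-like cells were also above the baseline cells in each mouse. Ly6a stood at 418, 107 and 58.8 CPM, against 149, 119 and 69.0 CPM in the monocyte-like cells. Irf7 stood at 47.1, 80.5 and 59.5 CPM, in each mouse below the monocyte-like cells. Ccl6 reached 2429.5, 1819.5 and 2229.6 CPM, and F13a1 1159, 640 and 703 CPM, in each mouse above the monocyte-like cells. These values are a description with no test.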
